A study of Mus musculus with 6 samples.

Results

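The GIMAP genes (GTPase of immunity-associated proteins) are a family of lymphocyte genes that lie side by side on mouse chromosome 6. The members were taken by gene symbol from a table of read counts, which held 8 of them among 24470 genes: Gimap1, Gimap3, Gimap4, Gimap5, Gimap6, Gimap7, Gimap8 and Gimap9. All 8 passed the filter on low counts, as did 11666 genes in all. The libraries came from naive CD4+ T cells that magnetic beads had purified out of spleens and lymph nodes draining the skin, in male mice of the C57BL/6J strain. Both groups were stimulated in the same way: cells in 200 µL of medium were held for 6 h on antibodies to CD3 and CD28 coated at 1 µg/mL. The groups differed in that 3 samples also received recombinant mouse CCL19, the chemokine that guides CCR7-bearing T cells into lymph nodes, and 3 (labelled NoCKN) did not. No genotype other than the strain, and no age, dose of CCL19 or number of animals, was read from the labels. Whether the replicates are separate animals, separate cultures or repeats of 1 preparation is not stated in the labels. The p-values therefore set the difference between groups against the variation among these samples, and that variation may be technical.

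GIMAP proteins are GTP-binding proteins with an AIG1-type domain related to that of septins, and several of them sit on membranes inside the cell. The family is known for keeping resting lymphocytes alive: rats of the lymphopenic BB line and mice that lack Gimap5 lose most of their peripheral T cells, and loss of Gimap1 removes mature lymphocytes. Members have been tied to proteins of the BCL2 family, to autophagy and to lysosomes, and naive T cells carry much of their mRNA.

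The CCL19 libraries held between 16978736 and 26980697 counts and the NoCKN libraries between 18203667 and 27429898. The smallest library was CCL19 replicate 1. The cells carried the mRNA of their label: Cd4 was at 570 ± 25.6 CPM (counts relative to library size, scaled by the TMM method, mean ± SD over 3 libraries) in the CCL19 group and at 634 ± 52.4 CPM in the NoCKN group, and Cd3e at 334 ± 16.1 and 341 ± 9.69 CPM. The activation markers Cd69 (518 ± 57.2 and 380 ± 53.6 CPM) and Il2ra (388 ± 52.6 and 264 ± 42 CPM) were present in both groups. Markers of B cells, which also express GIMAP genes, summed to between 15.8 and 22.9 CPM over 6 genes, and the CD8 markers Cd8a and Cd8b1 to between 12.4 and 17.2 CPM. The endothelial sum of 190 to 277 CPM was nearly all Pecam1, which naive T cells also express, and Cdh5, Kdr, Tek and Vwf had at most 6 counts in any library. In bulk RNA, fewer cells of a type and less RNA per cell cannot be told apart.

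No GIMAP gene changed with CCL19 past the threshold. The edgeR quasi-likelihood test, with Benjamini-Hochberg adjustment over all 11666 genes and a threshold of 0.05, called 0 of the 8 members and 0% of all genes. At an unadjusted p under 0.05 it marked 1 member, Gimap1, lower with CCL19 and none higher, where 13.0% of all genes were lower and 14.5% higher by that rule. DESeq2 called 0 of the 8 members, where it called 5.60% of the 9613 genes it adjusted lower and 6.55% higher, and limma-voom also called 0 members. None of the 8 members is in the authors' deposited table of changed genes. That table holds 630 higher and 538 lower genes, the same counts as the DESeq2 fit here, so it is not a separate result. The log2 fold change (with CCL19 minus without) was below 0 in 7 of the 8 members, against 50.2% of all genes, and only Gimap5 was above 0. The median over the members was -0.10 and over all genes 0.00. The 3 CCL19 libraries lay wholly below the 3 NoCKN libraries in 1 member, Gimap1, and wholly above in none, where this held for 14.5% of all genes in the lower and 15.3% in the higher direction.

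**Figure D1:**
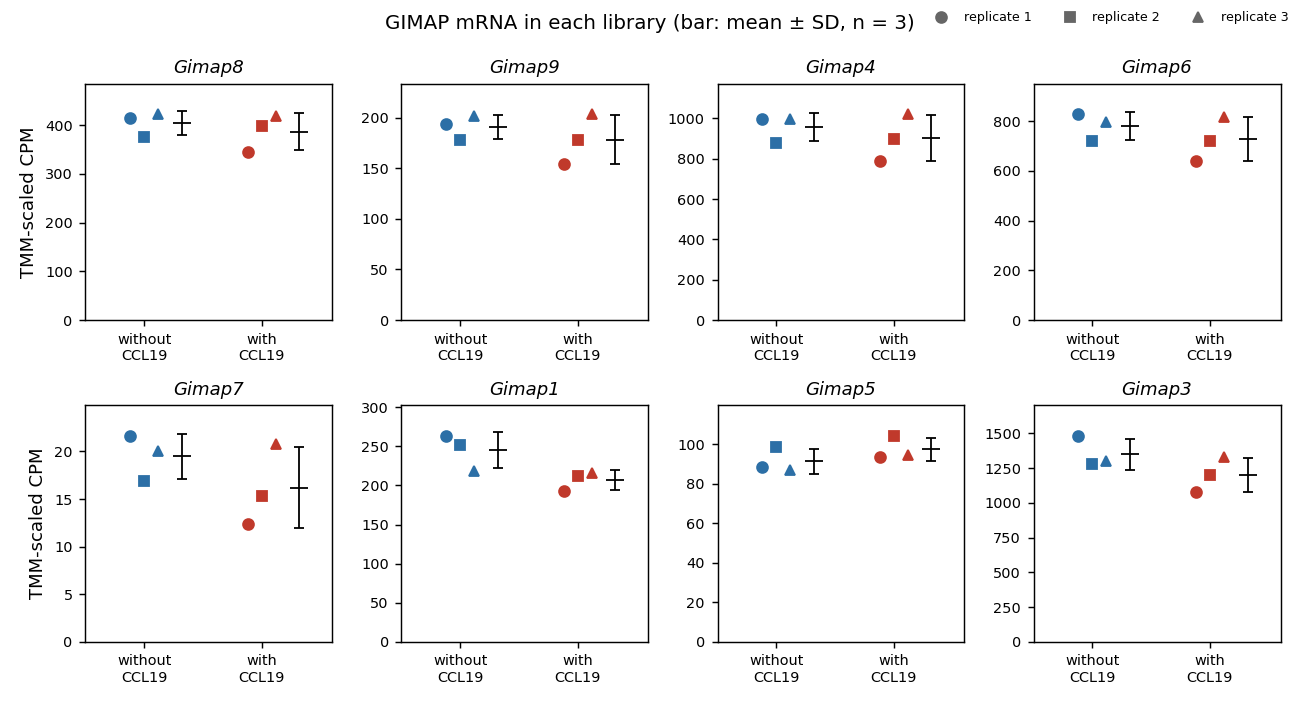
Normalised level (TMM-scaled CPM, linear axis from 0) of each GIMAP gene in the 3 libraries without CCL19 (blue) and the 3 with it (red). Symbols mark the replicate and bars the mean ± SD. Only for Gimap1 do the red points all lie below the blue ones, and the red circle, CCL19 replicate 1, is the lowest CCL19 point in all 8 panels.

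Gimap1 showed the clearest separation of the groups. The gene (Gene ID 16205, chromosome 6, bases 48739047 to 48743795 of mm10, forward strand) encodes a membrane-anchored GTPase needed for the survival of mature T and B cells. It stood at 193, 212 and 216 CPM in CCL19 replicates 1 to 3 and at 263, 252 and 219 CPM in NoCKN replicates 1 to 3. All CCL19 values lay below all NoCKN values, but CCL19 replicate 3 and NoCKN replicate 3 were only a few CPM apart. The means were 207 ± 12.2 and 245 ± 23 CPM (SD, n = 3 each), a ratio of 0.847. The log2 fold change was -0.24 ± 0.08 (SE), with a 95% interval of -0.42 to -0.06 and an unadjusted p of 0.0136 from the edgeR model over all genes. The Benjamini-Hochberg adjusted p was 0.097 with edgeR, 0.0992 with limma-voom and 0.0517 with DESeq2. With a correction for GC content and transcript length the difference shrank to -0.12 (edgeR adjusted p = 0.242). The longest transcript of Gimap1 had 57.87% GC, in a class of genes whose median log2 fold change was -0.11, and across 11603 genes GC content and fold change were negatively related (Spearman's rho -0.319, across genes, which are not independent replicates). The part of GC content in the Gimap1 difference was not tested. Leaving out both libraries numbered 3 brought the edgeR adjusted p for Gimap1 to 0.0318 (log2 fold change -0.35), and DESeq2 called it without CCL19 replicate 3 (adjusted p = 0.0378) or without NoCKN replicate 3 (adjusted p = 0.0127). In the same order, these fits called 1659, 1704 and 1258 genes in all. Other fits moved Gimap1 away from the threshold: the edgeR value was -0.18 without NoCKN replicate 1 (adjusted p = 0.362) and -0.20 without CCL19 replicate 1 (adjusted p = 0.299).

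Gimap5 was the only member with a mean above that of the NoCKN group. It lies just downstream of Gimap1 (Gene ID 317757, bases 48746197 to 48754200, forward strand), and its protein, found at lysosomes, restrains the kinase GSK3β. Gimap5 stood at 93.5, 104 and 94.6 CPM with CCL19 and at 88.6, 98.3 and 86.8 CPM without it. The groups overlapped, since NoCKN replicate 2 was above CCL19 replicates 1 and 3. The means were 97.3 ± 5.66 and 91.3 ± 6.19 CPM, and the log2 fold change was 0.09 ± 0.08 (95% interval -0.07 to 0.26, edgeR adjusted p = 0.463). On the linear scale this interval runs from 0.95-fold to 1.2-fold. Whichever single library was left out, the edgeR estimate for Gimap5 stayed between 0.04 and 0.15.

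The 300 bases around the starts of both genes are shown because Gimap1 and Gimap5 are adjacent, on the same strand and the only pair of members whose ratio separated the groups. They run from 250 bases before to 50 after the start, in RefSeq's GRCm38.p6, at chr6:48738797-48739096 for Gimap1 and chr6:48745947-48746246 for Gimap5, both on the forward strand. Capitals mark the core bound by ETS factors, which reads GGAA on this strand or TTCC where it lies on the other. They also mark the letters bound by RUNX factors, either TGTGGT, which reads ACCACA where it lies on the other strand, or TGCGGT, whose reverse complement is ACCGCA.
Gimap1: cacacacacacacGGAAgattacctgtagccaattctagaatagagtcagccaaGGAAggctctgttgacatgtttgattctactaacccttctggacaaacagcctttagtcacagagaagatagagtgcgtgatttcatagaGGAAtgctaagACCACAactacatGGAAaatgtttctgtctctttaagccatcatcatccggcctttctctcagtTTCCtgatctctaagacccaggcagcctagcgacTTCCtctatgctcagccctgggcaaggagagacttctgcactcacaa
Gimap5: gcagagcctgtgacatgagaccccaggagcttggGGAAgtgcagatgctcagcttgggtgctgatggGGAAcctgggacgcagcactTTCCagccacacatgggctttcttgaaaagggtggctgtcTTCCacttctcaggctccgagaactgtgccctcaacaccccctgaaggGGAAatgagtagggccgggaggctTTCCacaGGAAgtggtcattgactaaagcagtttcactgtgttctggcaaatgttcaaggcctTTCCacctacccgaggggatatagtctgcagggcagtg
Gimap1 holds 6 GGAA matches and 1 RUNX match (ACCACA), and Gimap5 holds 8 GGAA matches and no RUNX match. GGAA was found in all 8 member promoters and in 96% of 32851 promoters of the same length, whose median was 3 matches. A RUNX match was found in 4 of the 8 (Gimap9, Gimap4, Gimap7 and Gimap1) and in 22.4% of all promoters. CACCC, the letters bound by KLF factors such as Klf2, was found on either strand in 5 of the 8, with 3 matches in Gimap5 and none in Gimap1, against 57.5% of all promoters. The other motifs searched on both strands were CAAAG, the TCF/LEF core (4 of 8 against 53.9%), CCAAT (3 of 8 against 37.4%), TATAAA (Gimap6 alone, against 13.6%) and the FOXO sequence GTAAACA (Gimap3 alone, against 3.65%). These are matches of letters, and none of them was measured as a binding site here.

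The balance between Gimap1 and Gimap5 was read within each library, where depth cancels. The log2 ratio of Gimap1 to Gimap5 counts was 1.05, 1.03 and 1.19 with CCL19 and 1.57, 1.36 and 1.33 without it. Every CCL19 library had a lower ratio than every NoCKN library, and the means differed by -0.33. Of the 28 ratios that the 8 members allow, this was the only one whose groups did not overlap, and it was singled out after its values were seen. Shuffled labels separate a given ratio, in either direction, with a probability of 0.1. A single separated ratio among 28 is thus no more than shuffled labels would give. The 2-sided exact permutation test gave p = 0.1, the smallest that 3 against 3 samples allow, and an adjusted p of 0.533 over the 28 ratios. No ratio could have passed 0.05 with this number of samples, so the test cannot decide whether the balance of Gimap1 and Gimap5 differed. For comparison, the log2 ratio of Gimap4 to Gimap6 stayed between 0.27 and 0.33 in all 6 libraries.

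**Figure D2:**
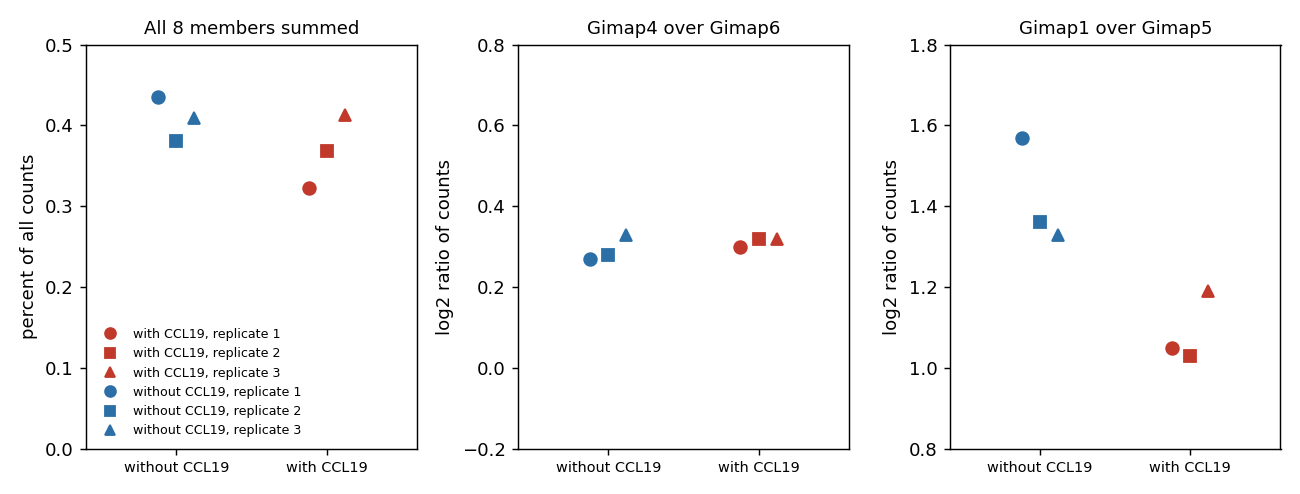
Left, the 8 members summed as a percentage of all counts of a library. Middle and right, the log2 ratio of Gimap4 to Gimap6 counts and of Gimap1 to Gimap5 counts, on axes of equal length that do not start at 0. Each point is 1 library; the groups overlap in the left and middle panels and are separate in the right one.

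Gimap3, the close paralogue of Gimap5, was the most abundant member by CPM. It is the last gene of the cluster (Gene ID 83408, bases 48764464 to 48770851, reverse strand), and its protein, like that of Gimap5, was described as a partner of BCL2 family proteins. Gimap3 stood at 1080, 1200 and 1330 CPM with CCL19 and at 1480, 1280 and 1300 CPM without it. CCL19 replicates 1 and 2 were below all NoCKN libraries, and CCL19 replicate 3 was above 2 of them. The means were 1200 ± 125 and 1350 ± 110 CPM (ratio 0.887), and the log2 fold change was -0.17 ± 0.10 (95% interval -0.38 to 0.03, edgeR adjusted p = 0.256). Without CCL19 replicate 3 it was -0.26 with edgeR (adjusted p = 0.0879) and -0.25 with DESeq2, which then called it (adjusted p = 0.0372). That DESeq2 fit called 1704 genes in all. Without CCL19 replicate 1 or without NoCKN replicate 1 the edgeR value was -0.10 (adjusted p = 0.599 and 0.648).

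The counts of Gimap3 and Gimap5 carry an uncertainty that the other members do not. Over 720 aligned coding bases they were 97.9% identical, while the other 27 pairs of members reached 58.9% to 71.4%. Their GENCODE transcripts share 190 distinct words of 50 bases, which is 9.98% of those of Gimap5 and 7.52% of those of Gimap3, and no other pair shares any. The longest run common to both coding sequences, 140 bases within 1 exon of each gene, is shown because a read that falls inside it cannot be assigned to either. It lies at chr6:48752684-48752823 on the forward strand for Gimap5 and at chr6:48765681-48765820 on the reverse strand for Gimap3, and no base of it is capitalised.
Gimap5 and Gimap3: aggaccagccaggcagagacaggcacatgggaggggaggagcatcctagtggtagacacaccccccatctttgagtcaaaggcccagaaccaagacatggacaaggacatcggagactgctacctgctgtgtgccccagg
The sources used here do not say how the authors counted reads with several matches. Gimap7 and Gimap1 also lie within a read-through model on the same strand, Gm28053, which overlaps Gimap5 for 6448 bases but ends inside that gene. Gimap1 is overlapped for 2398 bases by the antisense transcript Gimap1os. Neither model has a row in the count table, and the sources used here do not give the strand setting of the counting, so part of the counts of these genes could come from either.

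Gimap4, Gimap6, Gimap8 and Gimap9, from the first part of the cluster, differed little between the groups. Gimap4 (Gene ID 107526, bases 48684578 to 48692062, forward strand), whose protein has been linked to the death of T cells, stood at 789, 900 and 1020 CPM with CCL19 and at 996, 877 and 998 CPM without it. Gimap6 (Gene ID 231931, bases 48701583 to 48708244, reverse strand), whose protein binds the autophagy protein GABARAPL2, stood at 641, 721 and 818 CPM against 827, 720 and 797 CPM. Gimap9 (Gene ID 317758, bases 48676135 to 48678704, forward strand) stood at 154, 178 and 203 CPM against 194, 178 and 201 CPM. In each of these 3 genes CCL19 replicate 1 was the lowest of the 6 libraries and CCL19 replicate 3 was among the higher ones. Gimap8 (Gene ID 243374, bases 48647234 to 48660875, forward strand), the longest member with 688 codons where the others have 291 to 328, stood at 344, 398 and 418 CPM against 415, 376 and 422 CPM. The same order held for Gimap8, with CCL19 replicate 1 the lowest of the 6 libraries and CCL19 replicate 3 among the higher ones. The groups overlapped in all 4 genes. The log2 fold changes were -0.08 ± 0.10 for Gimap4, -0.10 ± 0.10 for Gimap6, -0.10 ± 0.09 for Gimap9 and -0.06 ± 0.09 for Gimap8, with edgeR adjusted p-values of 0.614, 0.514, 0.521 and 0.684. Their 95% intervals allow a level with CCL19 as low as 0.805-fold (Gimap6) and as high as 1.09-fold (Gimap4 and Gimap8). Without CCL19 replicate 1 the edgeR estimate became 0.01 for Gimap8, 0.00 for Gimap4, -0.01 for Gimap9 and -0.03 for Gimap6. With the correction for GC content and length it was -0.15, -0.16, -0.18 and -0.14 in the same order, and none of these passed.

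The promoters of Gimap9 and Gimap4, neighbours whose mRNA varied closely together over the 6 libraries (Pearson's r 0.99), are shown for that reason, in GRCm38.p6 at chr6:48675885-48676184 and chr6:48684328-48684627, both on the forward strand. Capitals mark the same ETS and RUNX letters.
Gimap9: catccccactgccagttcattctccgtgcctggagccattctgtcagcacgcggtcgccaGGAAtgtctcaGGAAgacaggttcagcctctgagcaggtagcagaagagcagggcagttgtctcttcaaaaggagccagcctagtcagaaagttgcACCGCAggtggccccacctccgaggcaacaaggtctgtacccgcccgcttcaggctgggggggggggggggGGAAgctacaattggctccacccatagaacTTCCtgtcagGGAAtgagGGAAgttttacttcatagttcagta
Gimap4: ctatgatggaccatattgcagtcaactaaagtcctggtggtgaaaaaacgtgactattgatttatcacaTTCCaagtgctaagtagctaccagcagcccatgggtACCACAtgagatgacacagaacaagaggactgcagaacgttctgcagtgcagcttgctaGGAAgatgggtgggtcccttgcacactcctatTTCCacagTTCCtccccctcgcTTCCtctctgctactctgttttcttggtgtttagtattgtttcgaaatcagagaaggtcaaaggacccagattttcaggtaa
Gimap9 holds 6 GGAA matches and Gimap4 holds 5, and each holds 1 RUNX match, ACCGCA in Gimap9 and ACCACA in Gimap4. The Gimap9 window has 57.3% GC and that of Gimap4 46%, where the median of all promoters is 52.7%.

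Gimap7 was the least abundant member and the most variable with CCL19. The gene (Gene ID 231932, bases 48718621 to 48724636, forward strand) encodes a GTPase that hydrolyses GTP as a dimer. Its counts were 206, 408 and 449 with CCL19 and 523, 465 and 368 without it, or 12.4, 15.3 and 20.8 CPM against 21.6, 16.9 and 20 CPM. CCL19 replicates 1 and 2 lay below all NoCKN libraries and CCL19 replicate 3 lay within their range. The means were 16.2 ± 4.27 and 19.5 ± 2.38 CPM, and the coefficient of variation with CCL19 was 26.4%. The log2 fold change of -0.26 ± 0.16 had the widest interval of the members, -0.60 to 0.08, and an edgeR adjusted p of 0.3. This result turned on 1 library: without CCL19 replicate 3, Gimap7 was called lower at -0.49 ± 0.14 (edgeR adjusted p = 0.0303), and without CCL19 replicate 1 it was -0.12 (adjusted p = 0.704). The fit without CCL19 replicate 3 called 1599 genes in all, where the fit to all libraries called 0.

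**Figure D3:**
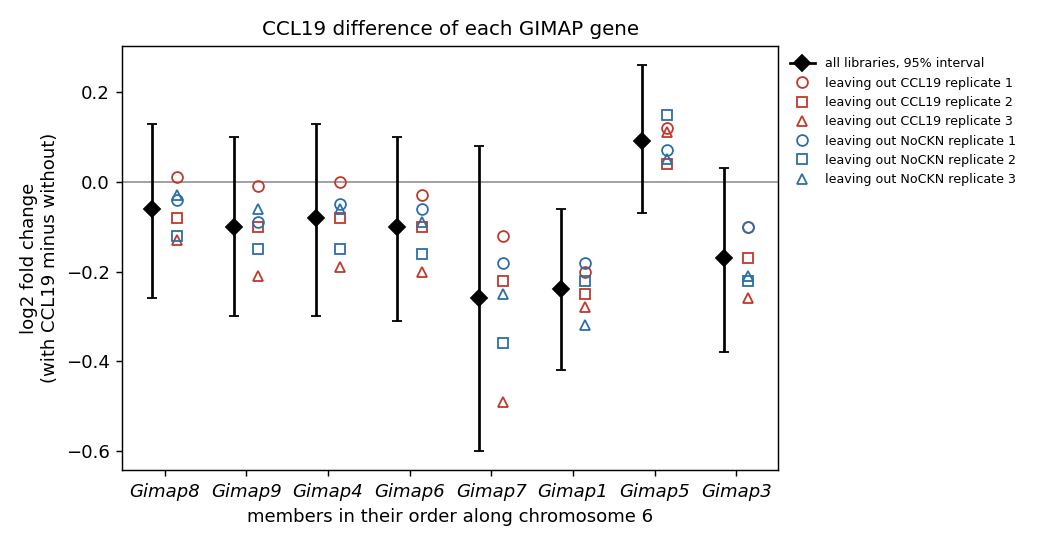
Log2 fold change of each GIMAP gene (with CCL19 minus without) from the edgeR fit over all 6 libraries, with its 95% interval (diamonds), and from the 6 fits that each leave out 1 library (open symbols), in the order of the genes on chromosome 6. The interval excludes 0 only for Gimap1, and leaving out CCL19 replicate 3 gives the lowest open symbol for 6 of the 8 genes.

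Levels were compared between members per kilobase of exon, since longer transcripts collect more reads. Gimap4 and Gimap3 led at 506 CPM per kb (430 to 555 over the 6 libraries) and 495 CPM per kb (417 to 574), and their ranges overlapped. Gimap6 followed at 236 CPM per kb (201 to 259), apart from both its neighbours in the order. Gimap1 at 151 (129 to 176), Gimap9 at 134 (112 to 146) and Gimap8 at 107 CPM per kb (93 to 114) formed a middle group in which each range overlapped the next. Gimap5 at 48.3 (44.4 to 53.1) and Gimap7 at 14.1 CPM per kb (9.76 to 17) stood apart at the low end. Gimap5, the member whose loss is known to empty the T cell pool, was thus the second lowest in mRNA per length. This order of the means holds for the exon lengths used and, for Gimap3 and Gimap5, within the limit of their shared bases.

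**Figure D4:**
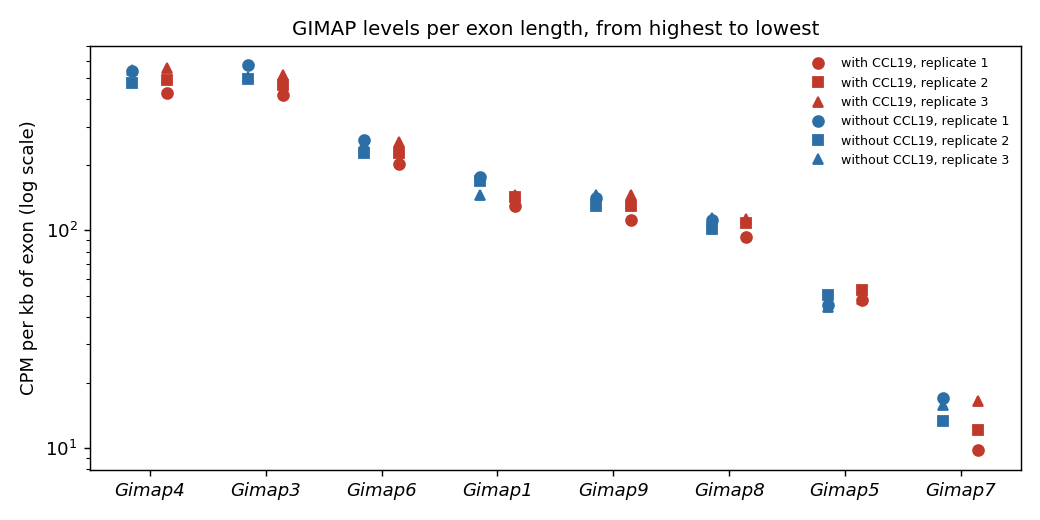
Level of each GIMAP gene per kilobase of exon (CPM per kb, log axis), from highest to lowest mean, with 1 point per library (blue without CCL19, red with it). The ranges of Gimap4 and Gimap3 overlap near 500 CPM per kb, and Gimap5 and Gimap7 lie below all other members.

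Summed, the 8 members took 0.323%, 0.368% and 0.413% of all counts in CCL19 replicates 1 to 3 and 0.435%, 0.381% and 0.409% in NoCKN replicates 1 to 3. The means were 0.368% ± 0.0447 and 0.408% ± 0.0274 (SD, n = 3 each), and the groups overlapped. Gimap3 made up 33% of the family's counts, Gimap4 23.9% and Gimap6 19.4%, whereas Gimap5 made up 2.44% and Gimap7 0.46%. Among the 11666 genes tested, Gimap3 ranked 44, Gimap4 92 and Gimap6 135 by CPM, so the family includes some of the most abundant mRNAs of these stimulated cells.

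The members also spread between libraries of the same group. CCL19 replicate 1 was the lowest CCL19 library for all 8 members and CCL19 replicate 3 the highest for 7, with Gimap5 the exception. Without CCL19, replicate 2 was the lowest for 6 of the 8. The median coefficient of variation of the members was 11.3% with CCL19, where that of the 8399 genes with a mean of at least 10 CPM was 6.58%, and 7.15% without it, where it was 7.01%. Among markers of naive T cells, Tcf7 was also lowest in CCL19 replicate 1, at 970 CPM, with 1040 and 1230 CPM in replicates 2 and 3 and 1590, 1260 and 1290 CPM without CCL19. Il7r stood at 537, 572 and 730 CPM against 824, 619 and 754 CPM, and Ccr7 and Lef1 were likewise lowest in CCL19 replicate 1, at 331 and 434 CPM. The B cell marker sum was likewise lowest there, at 15.8 CPM, with 17.9 and 20.3 CPM in the other CCL19 libraries and 22.5, 19.8 and 22.9 CPM without CCL19. The part of these markers, and of the low depth of CCL19 replicate 1, in the GIMAP values was not tested.

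Across the 6 libraries Gimap4, Gimap6, Gimap7, Gimap8 and Gimap9 varied together. Pearson's r of log2 CPM between them lay between 0.90 and 0.99 and reached 0.99 for Gimap9 with Gimap4, Gimap4 with Gimap6 and Gimap6 with Gimap7. These values describe 6 libraries of 2 groups that share their scaling, and with the group means removed r for Gimap9 and Gimap4 was also 0.99. Of 11665 other genes, 2.62% had an r over 0.9 with Gimap4, and Gimap9 ranked 3 among them. The closest member ranked 8 for Gimap6 and 18 for both Gimap7 and Gimap8. Gimap3 had an r of 0.94 with Gimap7 and 0.91 with Gimap6. However, 8.02% of other genes had an r over 0.9 with Gimap3, and Gimap7 ranked only 454 for it. Gimap1 was less like the block, at 0.40 with Gimap8 and 0.44 with Gimap4. Gimap5 had a weak negative r with every other member, between -0.49 and -0.19, and these values from 6 libraries were not tested against 0. With the group means removed, its r ran from -0.31 (Gimap4) to -0.14 (Gimap3), except with Gimap1, where it was 0.44. The genes whose pattern was most like the mean standardized level of the 8 members, among 8221 candidates, were Ccdc91 (r 0.997), Arhgap25, a GTPase-activating protein of blood cells (0.993), the protease gene Tasp1 (0.991), Ccdc130 (0.99) and Supt20, a subunit of a histone acetylation complex (0.989). Of these candidates 4.18% had an r over 0.9, and none of the 5 genes named was called between the groups (edgeR adjusted p from 0.428 to 0.632).

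Genes of the processes to which GIMAP proteins have been tied were read from the same fit, and edgeR called none of them. Of 13 tested BCL2 family genes, DESeq2 called 3 higher and 2 lower, with a list median log2 fold change of 0.01, where it called 6.55% of all genes higher and 5.60% lower. All 3 higher calls were lost when CCL19 replicate 1, CCL19 replicate 2 or NoCKN replicate 1 was left out; of the lower calls, Bbc3 was lost without NoCKN replicate 1, and Bad when any of these 3 was left out or without NoCKN replicate 2. Bcl2l1, which encodes the survival protein Bcl-xL, was at 116 ± 16.3 CPM in the CCL19 group and 83.6 ± 14 CPM in the NoCKN group (log2 fold change 0.47, DESeq2 adjusted p = 0.00837, edgeR adjusted p = 0.0505). Bid (0.33, DESeq2 adjusted p = 0.0298) and Bcl2a1d (0.39, DESeq2 adjusted p = 0.0268) were the other higher genes, and Bcl2a1d has near-identical copies whose reads could be split. The death-promoting genes Bbc3 (-0.51, DESeq2 adjusted p = 0.00256) and Bad (-0.58, DESeq2 adjusted p = 0.0264) were lower. Bcl2 itself, at 106 ± 3.84 and 105 ± 9.6 CPM, had a log2 fold change of 0.01 (95% interval -0.16 to 0.18), and Bax one of 0.08 (-0.10 to 0.27). None of 6 autophagy genes of the ATG8 family and its receptors was called by either tool (median -0.06), among them Gabarapl2, the partner of GIMAP6, at 12.1 ± 2.59 and 12.6 ± 2.63 CPM. The same held for 5 genes of GSK3 and β-catenin (median 0.02) and 3 of the lysosome membrane (median 0.08). Gsk3b, the kinase tied to GIMAP5, stood at 69.6 ± 0.931 and 76.8 ± 5.07 CPM, with groups that did not overlap and a log2 fold change of -0.14 (edgeR adjusted p = 0.231). Its CCL19 libraries lay wholly below the NoCKN libraries, which held for 14.5% of all genes.

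Genes that keep naive T cells in their resting state had a lower list median than the GIMAP members, at -0.23 over 14 genes, 10 of them below 0. DESeq2 called 5 of these lower and none higher, where it called 5.60% of all genes lower. Klf2 was the only one of the 5 still called without CCL19 replicate 1, without CCL19 replicate 2 or without NoCKN replicate 1, the library in which Ccr7, S1pr1, Tcf7 and Lef1 were highest. Klf2, a transcription factor of resting T cells, was at 386 ± 25.9 CPM in the CCL19 group and 576 ± 62.2 CPM in the NoCKN group (log2 fold change -0.58, DESeq2 adjusted p = 1.04e-06, edgeR adjusted p = 0.0505). The others were S1pr1, the receptor for exit from lymph nodes (-0.36, DESeq2 adjusted p = 0.0191), the transcription factors Tcf7 (-0.35, 0.0154) and Lef1 (-0.28, 0.0344), and Ccr7, the receptor of CCL19 (-0.32, 0.0185). Il7r, the receptor for the survival cytokine interleukin 7, was at 613 ± 103 and 733 ± 104 CPM, with a log2 fold change of -0.26 that neither tool called (edgeR adjusted p = 0.191). Another GTPase group of immune cells, the interferon-induced GTPases, lay on the other side: all 19 had a log2 fold change above 0, with a median of 0.39, and 12 had an unadjusted p under 0.05, where 14.5% of all genes were higher by that rule. NoCKN replicate 1 was the lowest of the 6 libraries for all 19. Without it the median was 0.18 and 4 had an unadjusted p under 0.05, and without CCL19 replicate 2 the count was 3. Over all 6 libraries the count was 4 with DESeq2 and 3 with a robust prior in edgeR. It was 4 with the correction for GC content and length (median 0.3), but 13 with limma-voom and 18 with no filter. DESeq2 called 1 of the 19 after adjustment, Gbp8, at 148 ± 12.6 and 118 ± 21.4 CPM (log2 fold change 0.34, adjusted p = 0.0451). Leaving out single libraries gave 0 DESeq2 calls in this list, except that without NoCKN replicate 3 there were 12. In 16 of the 19 the groups overlapped, and in 3 the CCL19 libraries were all higher, where this held for 15.3% of all genes. These lists were chosen with results of these data known, and no test compared them with the GIMAP members.

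The genes around the cluster were also examined. Within 500 kb of it the table held 23 other genes, of which 14 passed the filter and neither edgeR nor DESeq2 called any. Their log2 fold changes ran from -0.73 to 0.59 with a median of -0.19, and 9 were below 0, against 50.2% of all genes. At an unadjusted p under 0.05 in the edgeR model, 3 were lower with CCL19, Krba1 (-0.22), Zfp467 (-0.45) and Gpnmb (-0.73), and Zfp862-ps was higher (0.26), with edgeR adjusted p-values of 0.092, 0.112, 0.161 and 0.123. By the same rule 13.0% of all genes were lower and 14.5% higher, and without CCL19 replicate 1 none of the 14 had an unadjusted edgeR p under 0.05. Gpnmb stood at about 1 CPM, so its value rests on few counts. The remaining 10 were Sspo, Lrrc61, Repin1, Zfp775, AI854703, Tmem176b, Tmem176a, Malsu1, Igf2bp3 and Tra2a. Tra2a, a splicing regulator, was at 126 ± 2.17 and 114 ± 7.16 CPM and was the only one of these 10 whose groups did not overlap. Of all genes, 15.3% had all CCL19 libraries above all NoCKN libraries, and 14.5% had them below.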

How the data were processed

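Messenger RNA of 6 libraries was sequenced. An Illumina TruSeq RNA kit was used, per the labels' protocols. STAR 2.5, the build mm10 and featureCounts 1.5.0-p1 (Subread) are named per the submitters' processing notes, as is DESeq2 1.28.1. The deposited table holds raw counts per gene with NCBI Gene IDs, symbols and coordinates, per the file headers. A list of changed genes was deposited by the authors as well. The sources used here do not give the strand setting, the annotation release or the handling of multiple matches.

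Sample titles gave the groups and replicate numbers. Totals lay between 16978736 and 27429898 counts, and no library was a copy of another. By a chi-square per degree of freedom between 2 libraries, the closest pair was CCL19 replicate 3 and NoCKN replicate 3 (5.19). CCL19 replicate 3 was further from CCL19 replicates 1 and 2 (16.8 and 11.7). The reason for this was not tested. edgeR 4.0.16 (filterByExpr, TMM, quasi-likelihood F test, R 4.3.3) was fitted to all genes, p-values were adjusted by Benjamini-Hochberg (threshold 0.05), and the rows of the members were read from it. DESeq2 1.42.0 and limma 3.58.1 (voom) were alternatives. The scripts were tested on simulated data. CPM values are TMM-scaled, and log2 CPM for correlations used a prior count of 2. Levels per kb and GC content came from GENCODE transcripts of mm10, and promoters from RefSeq GRCm38.p6, where all 8 symbols matched. Protein sequences were not used here.

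Members, lists and tests were chosen with earlier results of these data known. The genes named are the 8 members, the list genes called by edgeR or, as it called none, by DESeq2, 8 further list genes, every tested gene within 500 kb of the cluster, the 5 genes of most similar pattern with a mean of at least 10 CPM, and Cd4, Cd3e, Cd69 and Il2ra. Marker genes of other cell types were fixed as lists. The summed level of the naive T cell markers is not reported here. The alternatives were other size factors, filters and priors, a correction for GC content and length, a replicate block, and each library left out; DESeq2 without single libraries or with the block was added after seeing the data.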

Additional observations from a re-analysis of the deposited data

How the results depend on the processing

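The count of called genes depended on the tool and on single libraries, and the cause was not tested. Where edgeR called 0 genes and 0 GIMAP members, DESeq2 called 1168 genes, edgeR with no filter 1600 and with a robust prior 529, and the count of called members stayed at 0 in these. Leaving out 1 library gave 0 to 1599 genes and 0 to 1 members with edgeR (Gimap7, without CCL19 replicate 3), and 0 to 3 members with DESeq2 (without CCL19 replicate 3 Gimap7, Gimap1 and Gimap3; without NoCKN replicate 3 Gimap1, 1 member). DESeq2 called 55, 123 and 1704 genes without CCL19 replicates 1, 2 and 3, and 105, 1010 and 1258 without NoCKN replicates 1, 2 and 3. Leaving out both replicates numbered 3 gave 1659 genes and 1 member with edgeR. For the partner and upkeep lists, where edgeR called 0, DESeq2 called 11 genes, no filter 24, a robust prior 5, both replicates numbered 3 left out 24, and single libraries left out 0 to 14 with edgeR. DESeq2 called 2, 2 and 14 list genes without CCL19 replicates 1, 2 and 3, and 1, 12 and 19 without NoCKN replicates 1, 2 and 3. Gimap8 and Gimap4 changed sign without CCL19 replicate 1, to 0.01 for Gimap8 with either tool (edgeR range -0.13 to 0.01 over single libraries left out) and 0.00 for Gimap4 with DESeq2. Without Gimap3 the family took 0.249% of counts with CCL19 and 0.272% without it, both lower than with it.

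Correlations of same-numbered deviations were -0.16, 0.08 and -0.02, and those of differently numbered libraries ran from -0.21 to 0.22. With 3 libraries per group these values cannot decide whether the replicate numbers pair the samples. With the replicate block edgeR called 0 genes and 0 members, and DESeq2 called 178 genes, 0 members and 6 list genes. The lowest count of a member in any library was 206, for Gimap7, the member with the widest interval.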
